A study of Mus musculus with 3 samples.

Results

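The Oas1, Oosp and Oog genes described here are 10 genes of rodent oocyte gene families that lie in tandem clusters: Oas1c, Oas1d, Oas1e and Oas1h on chromosome 5, Oosp1, Oosp2 and Oosp3 on chromosome 19, Oog3 and Oog4 on chromosome 4, and Oog1 on chromosome 12. They were chosen by name, out of 51123 annotated genes that had at least 1 valid window in the deposited table. H3K36me3 was measured by ultra-low-input native ChIP-seq (MNase-cut chromatin pulled down without cross-linking) in 3 replicates, each a pool of germinal vesicle (GV) oocytes from wildtype C57BL6/Babr females aged 25 days. These 3 replicates form a single group, so levels are compared between genes and regions and not between conditions. Replicate 2 was made with less antibody. According to the study's methods, a further replicate was made after an antibody titration, with the amount that had given the best yield. Its number is not stated outright. Per gene, the windows of 2 kb that overlap its body (GENCODE M21, GRCm38) were taken, together with those in 10 kb on both sides.

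H3K36me3 is a histone mark that is laid down behind elongating RNA polymerase and covers the bodies of transcribed genes, whereas H3K4me3 marks promoters and, in oocytes, also forms broad domains, and H3K27me3 is a repressive mark. In growing oocytes H3K36me3 is known to precede DNA methylation of transcribed bodies. The Oas genes encode 2'-5' oligoadenylate synthetases, enzymes of the antiviral response, and mouse carries many Oas1 copies, of which Oas1d is known from oocytes and lacks the enzymatic activity. The Oosp genes encode small proteins secreted by the oocyte and related to Plac1, a gene best known from placenta. The Oog genes, the oogenesins, encode leucine-rich repeat proteins of the PRAME family. Their RNA was not analysed here.

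The stretches directly upstream of 5 members are shown first, so that their letters can be set beside the marks over the genes, and include all 3 families. They were read from RefSeq promoters on GRCm38.p6, are written 5′ to 3′ on the strand of the gene, and end at the base before the gene's annotated start. Capitals mark matches on either strand to the E-box CANNTG, which the oocyte factor Figla binds, the element TAATTG, which the oocyte factor Nobox binds and whose match on the other strand reads CAATTA, and the TATA box TATAAA. In the printed stretches no match overlaps another.
Oas1c, chr5:120812515-120812634, minus strand, all 120 bases between its start and that of Oas1b: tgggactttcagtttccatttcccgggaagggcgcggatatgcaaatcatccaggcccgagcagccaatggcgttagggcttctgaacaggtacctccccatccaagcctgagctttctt
Oas1h, chr5:120861271-120861420, plus strand: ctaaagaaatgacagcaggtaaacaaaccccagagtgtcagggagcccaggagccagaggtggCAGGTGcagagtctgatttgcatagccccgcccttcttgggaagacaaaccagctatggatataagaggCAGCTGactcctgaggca
Oosp2, chr19:11660560-11660709, minus strand: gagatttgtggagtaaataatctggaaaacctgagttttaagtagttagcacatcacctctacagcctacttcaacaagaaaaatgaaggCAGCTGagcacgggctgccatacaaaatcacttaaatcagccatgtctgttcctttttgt
Oog3, chr4:144162664-144162813, minus strand: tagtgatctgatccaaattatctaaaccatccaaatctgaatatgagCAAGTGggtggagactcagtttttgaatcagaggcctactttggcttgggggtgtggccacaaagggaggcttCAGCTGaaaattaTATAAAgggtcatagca
Oog4, chr4:143450325-143450474, minus strand: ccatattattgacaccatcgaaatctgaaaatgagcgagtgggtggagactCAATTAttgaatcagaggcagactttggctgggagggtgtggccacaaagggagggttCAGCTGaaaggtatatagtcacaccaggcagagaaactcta

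RefSeq promoters (250 bases before and 50 after a start) were matched for 7 of the 10 members; Oas1d, Oas1e and Oosp3 are named only. An E-box was present in 6 of these 7, and in 72.3% of all 32851 promoters. TAATTG was found in 2, Oog3 and Oog4, and in 8.0% of all promoters, and for Oog3 it lies outside the printed bases. TATAAA was found in Oog3 alone of the 7, and in 13.6% of all promoters. The Oas1c promoter held no match to any of the 3 motifs and had the highest GC content of the 7, 54% with 9 CpG, whereas Oog3 had the lowest, 41.3%. The median over all promoters was 52.7% GC and 7 CpG.

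A gene's level was the mean RPKM over its valid windows in a replicate, where RPKM is the authors' name for reads scaled to library depth, and a window counted as enriched when its mean over the replicates was above 1, which held for 31.8% of all 1186323 valid windows. In all 3 replicates 19.7% of windows were above 1. Of the 10 members, 9 had a level above 1, and 8 were above 1 in each replicate. Among all 21067 protein-coding genes with a valid window, 52.5% were above 1 and 46.5% were so in each replicate, and among the 8695 of 5 to 25 kb the share was 50.7%. The median member level was 1.58, against 1.10 for all protein-coding genes. Averaged over the 10 members, the level was 1.34, 1.36 and 1.70 in replicates 1, 2 and 3, which gives 1.47 ± 0.20 (SD, n = 3), and over all protein-coding genes it was 1.20 ± 0.020. The log2 ratio of these means was 0.28 ± 0.17 (SD, n = 3) and positive in 3 of 3 replicates (two-sided exact sign-flip test over replicates, p = 0.25). With 3 replicates 0.25 is the smallest p this test can give, so no comparison between regions or genes described here could pass a usual threshold. Nothing states that the pools came from separate cohorts of animals, so the SDs may measure technical spread.

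**Figure D1:**
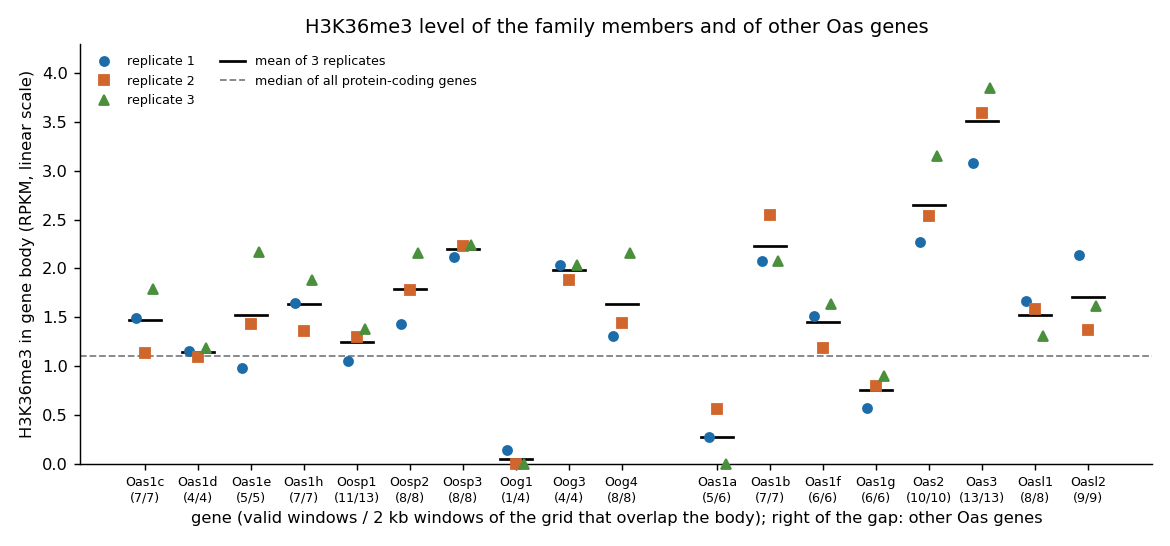
H3K36me3 level (RPKM, linear axis) of the 10 members and, right of the gap, of 8 other Oas genes, with a symbol per replicate, the mean of the 3 replicates as a black bar, and valid over all 2 kb windows in brackets. The dashed line is the median of all protein-coding genes, 1.10, and all members except Oog1 have means above it.

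Depth limits single genes. The valid windows held 7888140, 2692510 and 3166564 reads in replicates 1, 2 and 3, and a read was worth 0.136, 0.396 and 0.338 RPKM. The 10 bodies together held 1248 reads. Intervals below are exact 95% Poisson intervals of the reads and cover counting error only.

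Across the members, the order of the mean levels was Oosp3, Oog3, Oosp2, Oog4, Oas1h, Oas1e, Oas1c, Oosp1, Oas1d and Oog1. Neighbours in this order differed by more than the SD of their difference, and in the same direction in 3 of 3 replicates, in 2 places, between Oosp3 and Oog3 (by 0.214 ± 0.13 RPKM) and between Oas1d and Oog1 (by 1.10 ± 0.083 RPKM). In the other 7 places the difference was within that spread. The order of Oosp3 and Oog3 depends on the windows counted: by windows with their midpoint in the body Oog3 was higher, at 2.61 against 2.26. Their counting intervals also overlapped, in replicate 1 with 1.77 to 2.53 for Oosp3 and 1.55 to 2.62 for Oog3. By family, the mean levels were 1.44 ± 0.27 for the 4 Oas1 genes, 1.74 ± 0.20 for the 3 Oosp genes and 1.22 ± 0.15 for the 3 Oog genes (SD, n = 3). The log2 ratios were -0.28 ± 0.19 for Oas1 against Oosp, 0.23 ± 0.086 for Oas1 against Oog and 0.52 ± 0.14 for Oosp against Oog (exact sign-flip test, p = 0.25 for each, adjusted over the 3 pairs 0.25). Both ratios to Oog rest on Oog1, which had 1 read. Without it, Oas1 against Oog was -0.33 and Oosp against Oog -0.05.

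Oas1c (ENSMUSG00000001166.17, chr5:120800194-120812514, minus strand) had valid values in all 7 of its windows. Its levels were 1.49, 1.13 and 1.79 RPKM in replicates 1, 2 and 3 (77, 20 and 37 reads), or 1.47 ± 0.33 (SD, n = 3), above the median protein-coding gene and higher than 59.6% of them. Of its windows 6 were enriched, and 2 were above 1 in all 3 replicates. They formed a stretch of 10 kb over the 3′ part of the gene, at 1.74 ± 0.67, and a separate stretch of 14 kb that starts in the window shared with the start of Oas1b and runs through Oas1b. The highest window, chr5:120806001-120808000, was 7.55% exonic, so it is mostly intron. Its values were 2.58, 0.793 and 4.06, and replicate 2, with 2 reads there, stayed below 1.

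Oas1e (ENSMUSG00000066867.8, chr5:120786226-120795530, minus strand), next to Oas1c, had all 5 windows valid and levels of 0.978, 1.43 and 2.17 RPKM, or 1.52 ± 0.60. It was the only member besides Oog1 below 1 in a replicate, and the counting interval of replicate 1, 0.685 to 1.35, ended below the start of that of replicate 3. The level was highest at the start, where the window chr5:120794001-120796000 had 1.77, 2.77 and 3.05 RPKM and was 25.2% exonic. An antisense transcript, Gm43069, overlaps all 5 windows of Oas1e and 3 of the 7 of Oas1c. Reads of a histone ChIP carry no strand, so the mark over Oas1e cannot be told apart from that over Gm43069, whose own windows averaged 1.64 ± 0.32.

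Oas1h (ENSMUSG00000001168.16, chr5:120861421-120873506, plus strand) had 1.65, 1.36 and 1.89 RPKM in its 7 valid windows, 1.63 ± 0.26. All replicates were above 1, and 6 windows were enriched, 4 of them in every replicate. They formed an unbroken stretch of 14 kb that began in the second window of the gene and passed its end by a single window, and whose level was 1.67 ± 0.26. The window at the start itself stayed at 0.855. The highest window, chr5:120862001-120864000, had 2.58, 2.38 and 3.05 RPKM, the closest agreement between replicates among the highest windows of the 4 Oas1 members (SD 0.342), and 14.5% of it was coding exon.

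Oas1d (ENSMUSG00000032623.9, chr5:120914536-120921652, plus strand) stands at the far end of the cluster and was the lowest of the 4 Oas1 members. The levels in its 4 valid windows were 1.15, 1.09 and 1.18, or 1.14 ± 0.048 RPKM, from 59 reads. This close agreement of the gene means hides windows that disagreed: the start window had 0.815, 1.98 and 3.38 RPKM, the third window 2.44, 1.19 and 0. No window of Oas1d was above 1 in all replicates, and its level by the median over windows was 0.805.

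**Figure D2:**
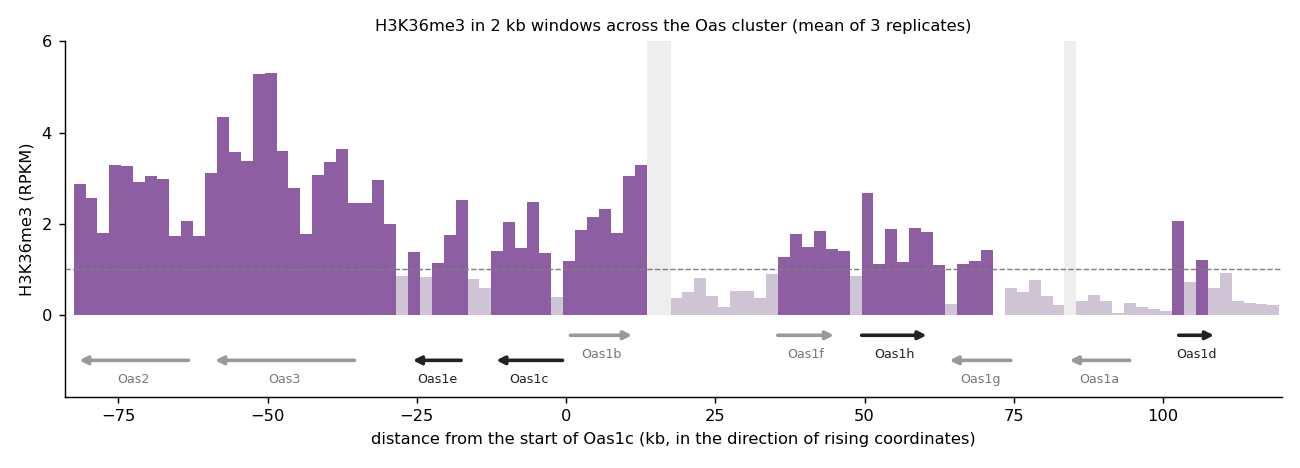
Mean H3K36me3 (RPKM, 3 replicates) in 2 kb windows of the Oas cluster against distance from the start of Oas1c in kb, with enriched windows dark, other windows pale, windows without a value grey and the threshold of 1 dashed; arrows are genes in the direction of transcription, members in black. The 4 Oas1 members stand at 1.14 to 1.63 RPKM on average, beside Oas2 and Oas3 at 2.65 and 3.51.

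In the whole cluster, from Oas2 to Oas1d, 61 of 93 valid windows were enriched (65.6%), beside 31.8% in the genome. The mark was uneven within it. Oas3 was the highest gene, at 3.51 ± 0.39, followed by Oas2, at 2.65 ± 0.45, and a single enriched stretch of 54 kb covered both and ended in the first windows of Gm43069. Oas1b, a gene for flavivirus resistance that is a polymorphic pseudogene in the annotation, had 2.23 ± 0.27 with 7 of 7 windows enriched. By contrast, 8 windows between Oas1b and Oas1f held no enriched window (0.454 ± 0.078), and 7 of them were called for H3K4me3. Likewise 0 of 3 windows between Oas1a and Oas1d were enriched. Of the 8 other Oas genes, 6 were above 1, and those not above it were Oas1a, at 0.276 ± 0.28, and Oas1g, at 0.754 ± 0.17. The 4 Oas1 members against these 8 genes gave a log2 ratio of -0.31 ± 0.23, negative in 3 of 3 replicates (exact sign-flip test, p = 0.25). H3K27me3 was called in 8 windows of the cluster, 7 of them in Oas2, and in none of a member's body.

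Oosp2 (ENSMUSG00000055895.6, chr19:11647279-11660559, minus strand) had 1.43, 1.78 and 2.16 RPKM over 8 valid windows, 1.79 ± 0.37, and 7 of them were enriched. Its 3′ end lay in an enriched stretch of 40 kb (chr19:11612001-11652000, 2.06 ± 0.13) that also covered Ms4a2 and Ms4a3, members of a family of membrane-spanning immune cell proteins, so the mark did not stop at the gene's end. Ms4a3 itself, in the same stretch, had 2.37 ± 0.26. The highest window of Oosp2 was the one at its start, with 1.63, 1.19 and 5.08 RPKM, and replicate 3 supplied 15 of its reads against 12 and 3 in the others.

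Oosp3 (ENSMUSG00000055933.13, chr19:11697055-11711874, plus strand) had the highest level of the 10, 2.12, 2.23 and 2.24 RPKM, or 2.198 ± 0.066, from 223 reads. The 3 gene means nearly coincided. Their counting intervals were wider, 1.77 to 2.53, 1.63 to 2.98 and 1.68 to 2.93 in replicates 1, 2 and 3. Oosp3 was higher than 84.4% of protein-coding genes. Of its 8 valid windows 7 were enriched, 5 in every replicate, and 6 of them formed a stretch of 12 kb at 2.43 ± 0.15 that began at the start of the gene. The highest window, chr19:11700001-11702000, reached 3.67, 5.95 and 3.38 RPKM, was 4.90% exonic and carried H3K4me3 as well. A processed pseudogene, Gm19224, lies inside Oosp3, and without the 2 windows that overlap it the level was 2.38.

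Oosp1 (ENSMUSG00000041857.10, chr19:11667460-11691150, minus strand), the longest member, was the lowest of its family: 1.05, 1.30 and 1.38 RPKM, or 1.24 ± 0.17, with 11 of its 13 windows valid. Only 5 windows were enriched, in 3 separate places, of which 4 were above 1 in every replicate. The highest, chr19:11686001-11688000 near the start, had 3.53, 2.77 and 4.06 RPKM, all well above 1, and 4.90% of it was exonic. Between these places the measured mark was low, down to 0.448 in the lowest window, and the median window gave a level of 0.829. The windows without a value, chr19:11672001-11676000, lie there too. In the windows at 0.448, 0.468 and 0.474, 21.3%, 23.85% and 37.3% of 75-base words occur more than once in the genome. In those at 0.693 and 0.758 it was 1.3% and 0.9%. Whether repeats lower these values was not tested.

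Oog3 (ENSMUSG00000050810.8, chr4:144157557-144162663, minus strand) showed the sharpest contrast with its surroundings. It had 2.04, 1.88 and 2.03 RPKM in 4 valid windows, 1.98 ± 0.087, while the 7 valid windows on its sides had 0.213, 0.227 and 0.0483. All of the enrichment lay in 4 kb at the start and first part of the gene, at 3.06, 3.77 and 3.38 RPKM, and the 2 windows of the last part had 1.02, 0 and 0.677. The highest window of all members was here, chr4:144160001-144162000, with 3.26, 4.76 and 5.41 RPKM and 15.7% coding exon. By windows with their midpoint inside the body the level was 2.61.

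Oog4 (ENSMUSG00000047799.15, chr4:143437164-143450324, minus strand) had 1.31, 1.44 and 2.16 RPKM over 8 valid windows, 1.63 ± 0.46, with replicate 3 above the others. Enriched were 6 windows, 5 in each replicate, as 4 kb near the start (1.97 ± 0.40) and 10 kb at the 3′ end (1.75 ± 0.62), which passed the end of the gene by 1 window. The highest, chr4:143438001-143440000, had 1.49, 1.98 and 4.06 RPKM and was 36.4% coding exon, the last part of the gene.

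Oog1 (ENSMUSG00000096576.2, chr12:87602688-87608850, plus strand) could hardly be measured. Only 1 of its 4 windows was valid, that window lies at the 3′ end with 42.5% of it in the gene, and it held 1 read in replicate 1 and 0 in the others. The counting intervals reached 0.757, 1.46 and 1.25 RPKM, so a level above 1 was not excluded by depth in replicates 2 and 3. In this window 56% of the 75-base words occur more than once in the genome, which the intervals do not cover in any replicate. Nothing was measured in the other 3 windows, the start among them.

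**Figure D3:**
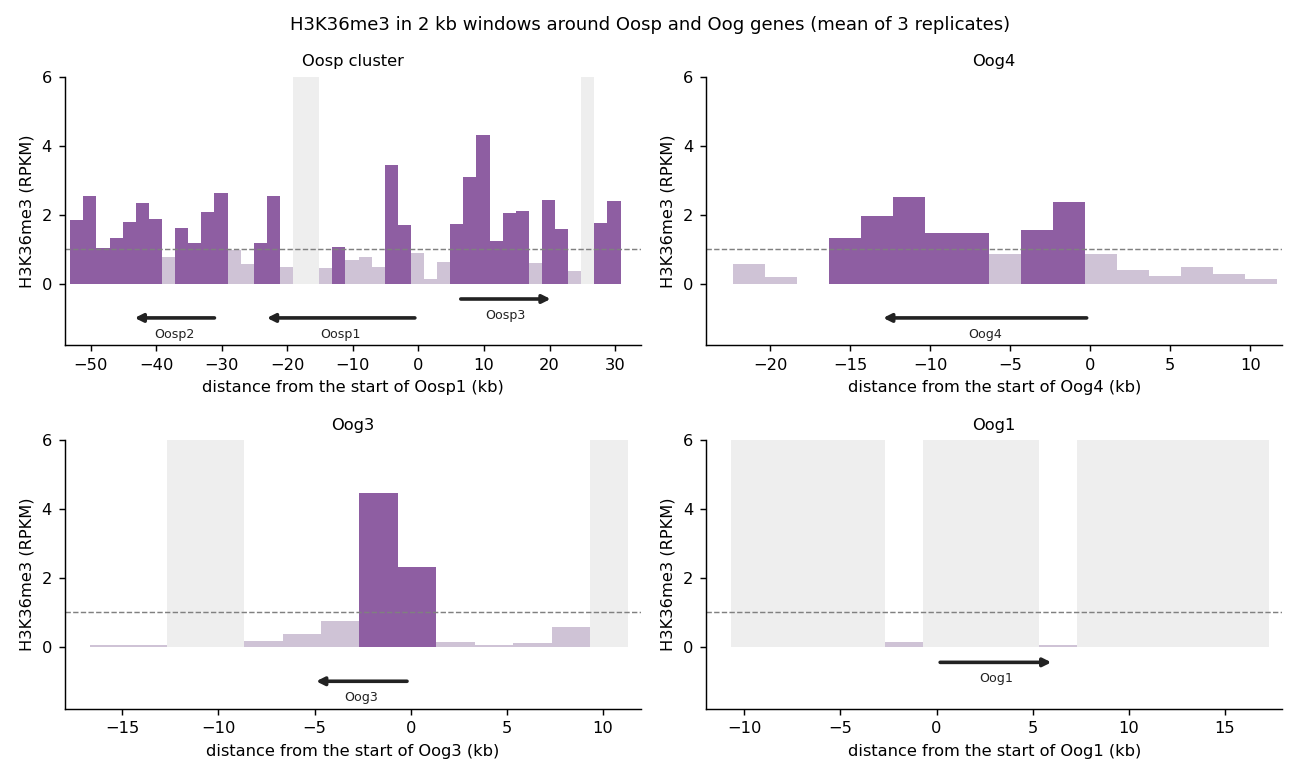
Mean H3K36me3 (RPKM, 3 replicates) in 2 kb windows against distance from a gene's start in kb, for the Oosp cluster, Oog4, Oog3 and Oog1, with enriched windows dark, other windows pale, windows without a value grey, the threshold of 1 dashed and genes as arrows. Enrichment at Oog3 is limited to the 2 windows at and after its start, and at Oog1 only 1 of 4 body windows has a value.

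Of the 68 windows that overlap a member's body, 63 were valid, and 8 of 10 members had all windows valid, where 82.1% of protein-coding genes do. The exceptions were Oog1 and Oosp1. As the authors left out windows by their reads in input chromatin, which was not analysed here, the genome sequence was examined for words of 75 bases, the read length, that occur more than once. In Oog1 78.2% of the positions began such a word. The next was Oosp1 with 15.8%, followed by Oas1h with 11.4%, and the lowest was Oog4 with 2.26%. Over bodies and flanks together, the 126 valid windows had a median of 2.35% repeated words and the 18 windows without a value 77.4%, with ranges of 0 to 56.0% and 38.9 to 100%. The 2 ranges overlapped, and the part that repeats played in the filter was not tested. A word in coding exon 2 of Oog1, chr12:87606023-87606097, plus strand, shows the limit: it occurs 4 times in GRCm38, on 2 chromosomes, so a read with these bases has no single origin.
Oog1 exon word: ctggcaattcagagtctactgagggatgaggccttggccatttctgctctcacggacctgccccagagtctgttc

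**Figure D4:**
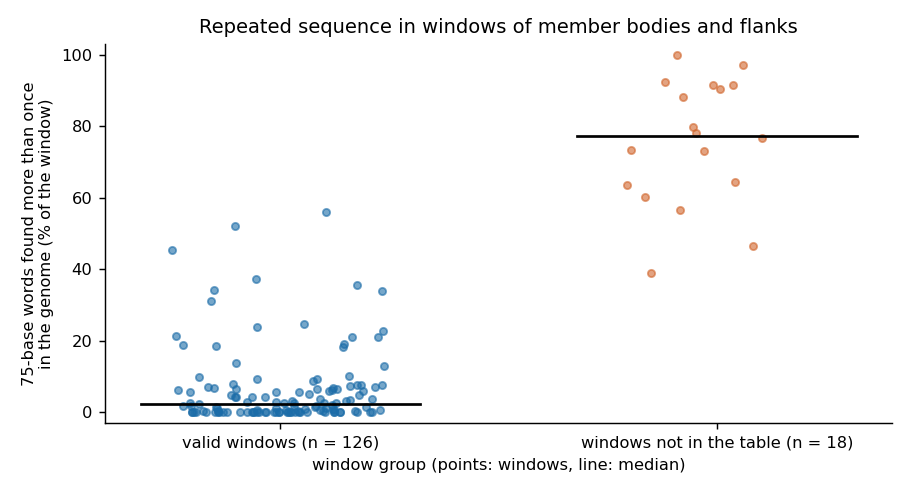
Share of positions in a 2 kb window that begin a 75-base word found more than once in GRCm38 (percent), for the 126 valid and the 18 other windows of member bodies and flanks, with a point per window (spread sideways at random) and the median as a line. The medians are 2.35% and 77.4%.

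Coding sequences differed widely between relatives. Among the Oas1 members, identity ran from 77.1% (Oas1e with Oas1h) to 89.8% (Oas1d with Oas1e). It was 56.5 to 59.5% among the 3 Oosp genes. Oog1 shared 81.3% with Oog3 and 79.2% with Oog4, within the range of the Oas1 members, and Oog3 and Oog4 shared 75.3%, below it. In Oog1 10.7% of positions began a word with a copy on another chromosome.

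Whether the mark belonged to the genes or to the whole clusters was asked by comparing each body with 10 kb on both sides, without windows of other members. The log2 ratio over the 9 members for which it could be computed was 1.17 ± 0.47 (SD, n = 3), positive in 3 of 3 replicates (exact sign-flip test, p = 0.25). Oog1 was not among them, since body or flank was at 0 in every replicate. Among protein-coding genes 62.8% have the body above the flanks. Their flanks kept windows of all neighbouring genes, so this share is not measured like that of the members. The members' bodies were higher than the flanks in 7 of 9. They were so in each replicate in 5, and this share was not counted for protein-coding genes. These 5 were Oog3 (log2 ratio 3.90 ± 1.30), Oas1d (2.31 ± 1.07), Oog4 (2.06 ± 0.53), Oosp1 (1.16 ± 0.32) and Oosp3 (0.95 ± 0.17). For Oosp1 only 4 flank windows were left. Those left out, in Oosp2 and Oosp3, ran from 1.18 to 4.33 RPKM, against 1.24 in its body. For Oas1h and Oosp2 the ratio was positive in 2 of 3 replicates, at 0.33 ± 0.36 and 0.28 ± 0.27. Oas1c and Oas1e had flanks above the body on average, -0.30 ± 0.47 and -0.20 ± 0.77, and positive ratios in 1 replicate each. Their flanks hold Oas1b and the last part of the stretch over Oas3.

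**Figure D5:**
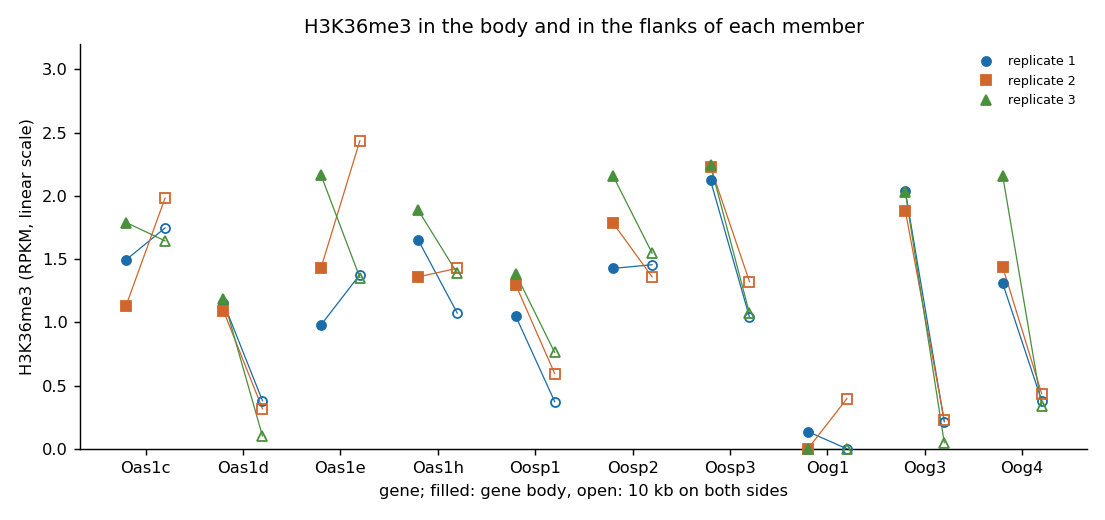
H3K36me3 (RPKM, linear axis) of each member in the gene body (filled) and in 10 kb on both sides without other members' bodies (open), with a line and symbol per replicate. All 3 replicates fall from body to flank for Oas1d, Oosp1, Oosp3, Oog3 and Oog4, and for Oas1c the flanks average 1.79 against 1.47 in the body.

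H3K36me3 is known to rise towards the 3′ end of transcribed genes, and 67.7% of protein-coding genes were higher after the midpoint of the body than before it. Among the members this was so for 2 of the 9 with windows on both sides of it, Oas1c and Oog4. Oas1h was nearly level, at 1.633 before and 1.629 after its midpoint, and was higher after it in 2 of 3 replicates. Oas1d, Oosp1 and Oosp2 were higher after it in 1 of 3 replicates each. Over the 8 in which no replicate was at 0, the log2 ratio of the level after to that before the midpoint was -0.23 ± 0.16 (SD, n = 3), negative in 3 of 3 replicates (exact sign-flip test, p = 0.25). Oas1c was the only member higher after its midpoint in every replicate, with 1.54, 1.32 and 2.03 RPKM against 1.46, 0.991 and 1.61. Oas1e (log2 ratio -0.78 ± 0.22) and Oosp3 (-0.55 ± 0.66) were lower there in each replicate, as was Oog3 with 3.40 RPKM before and 0.565 after its midpoint.

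The calls of the other marks come from libraries of the same laboratory that had been published before, and the deposited table gives 1 call per window and no values of single replicates. All 9 valid start windows of members were called for H3K4me3, where 78.0% of the start windows of protein-coding genes are. H3K36me3 was also called in 6 of these 9, for Oas1c, Oas1d, Oas1e, Oosp2, Oosp3 and Oog3, where 22.8% of start windows have it and 17.0% have both marks. A window of 2 kb that holds a start also holds part of the body, so the marks need not lie on the same nucleosomes. Over the bodies, 45 of 63 windows were called for H3K36me3 (71.4%), 22 for H3K4me3 (34.9%, where 28.3% of all windows are) and 18 for both. On the flanks 27 of 63 were called for H3K36me3 (42.9%) and 24 for H3K4me3, with both in 4. The share of all windows with both marks was not computed, so the counts of 18 and 4 stand without a background. H3K27me3 was called in 0 of the 63 body windows and 0 of the 63 flank windows, where 30.0% of all windows in the genome carry the call.

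Among 12 other annotated PRAME-family genes, 3 were above 1: Pramef12, the highest, at 2.71 ± 0.51, then Pramef8, at 2.57 ± 0.18, and Pramef20, at 1.30 ± 0.90. The lowest, Pramel3 and Pramel4, had 1 valid window each of 6, with 0 reads. Oog2, the oogenesin nearest to Oog3, had 0.464 ± 0.12. Plac1, the Oosp relative outside the cluster, had 0.389 ± 0.098. The labelled cell type was checked on marker genes: 10 of 11 oocyte genes were above 1, all except Zar1, and 2 of 7 granulosa cell genes, Amh and Hsd3b1, were so too. Among all protein-coding genes 52.5% were above 1.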

How the data were processed

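According to the study's methods, reads were trimmed and mapped by the authors to GRCm38 with Bowtie2 2.2.9 and counted in SeqMonk over 2 kb windows, and windows with very low or very high input were removed; removal of duplicates is not given in the sources used here. The deposited RPKM values, 1 column per replicate, were whole multiples of the value of 1 read in 100% of windows (tolerance 0.01 reads), by which reads were recovered. These windows held 1.07 times the library total that this value implies if it is a CPM, and 2.13 to 2.14 times if it is also divided by window length, so CPM is the closer reading and levels were taken as proportional to CPM. The deposited table of marks names the calls per window; its H3K36me3 call was the same as a mean above 1 in all 1186323 valid windows.

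Levels were means over valid windows that overlap a gene by any length, with mean and SD over 3 replicates. Log2 ratios used no pseudocount and were tested by two-sided exact sign-flip permutation over replicates (7 tests, Benjamini-Hochberg adjusted p 0.25 for each). No count model was fitted, since there is 1 group. Python 3.11.15, numpy 2.4.6, pandas 2.3.3, scipy 1.17.1, numba 0.67.0 (words), Biopython 1.88 (alignment of coding sequences) and matplotlib 3.10.9 were used, and scripts were tested on simulated data. Named were the members, their neighbours, and other Oas, PRAME-family, Plac1 and marker genes. The members and lists were chosen with earlier results of these data known. Alternatives were the windows counted, the summary, threshold, flanks and replicates. A gene of the list of related genes is not reported here.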

Additional observations from a re-analysis of the deposited data

How the results depend on the processing

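Of 57 recomputed values of the comparisons, 52 were counted as the same. For counts this meant within 1.5 times, for levels within 1 SD, and for log2 ratios the same direction only. Ratios could thus change in size. With the windows of a family pooled, Oosp against Oog fell from 0.52 to 0.068 (exact sign-flip test, p = 0.75). By medians over genes, members against all protein-coding genes rose from 0.28 to 0.51. Counting only windows with their midpoint in a body raised the mean member level from 1.47 to 1.71. Oog1 then had no window, and 9 members were left. Leaving out Oog1 alone gave 1.62. By midpoints the level of Oog3 rose to 2.61, above that of Oosp3 at 2.26. At a threshold of 2 RPKM, 1 member (Oosp3) remained above it, and at 1.5 RPKM 6 did. The shares of protein-coding genes at these thresholds were not counted. Close to them, Oog3 at 1.98 was higher than 76.7% of protein-coding genes, and Oas1e at 1.52 than 61.1%. The ratio of Oas1 to Oog turned to -0.14 with the windows of a family pooled. Without Oog1, an alternative chosen after seeing the data, it was -0.33 and that of Oosp to Oog -0.051. Leaving out a replicate left 9 members above 1 each time and gave log2 ratios of body to flanks of 0.90 to 1.35; over the other alternatives this ratio ran from 0.71 (median over windows) to 1.63 (windows of other genes left out, chosen after seeing the data, which leaves Oas1e without a window and 8 members above 1). By the median over windows 7 members were above 1, and the share of all protein-coding genes was not counted in this way. Of 67 recomputed single-member levels, 59 moved by less than 1 SD and 8 by more, among Oas1d, Oosp1, Oosp3 and Oog3. As the smallest possible p is 0.25, p-values say nothing about stability. No paired analysis was possible because there is no other group to pair the samples with; the ratios above were formed within each replicate. Depth limits Oas1d (59 reads) and Oog1 (1 read) most.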

Other observations

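The closest pair of Oas1 coding sequences was Oas1a and Oas1g, with 96.7% identity over 1101 aligned bases, and these were also the Oas genes of the cluster below 1 RPKM. Repeated 75-base words took 16.4% and 17.6% of their bodies, against 0.277% in Oas3 and 1.22% in Oas2. Oas1d and Oas1e, the closest pair among the members (89.8%), had 4.45% and 5.37%. Whether repeated words lower the levels of these genes was not tested. Oas2 was the Oas gene in which H3K36me3 and H3K27me3 calls met, with 10 of 10 windows enriched and 7 called for H3K27me3.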
